A study of Mus musculus with 14 samples.

Results

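Shelterin and its close partners at the chromosome end were described in bulk RNA sequencing of whole mouse kidneys. The 9 genes were the rows named Terf1, Terf2, Terf2ip, Tinf2, Acd, Pot1a, Pot1b, Rtel1 and Ctc1, out of 23682 genes present in both deposited tables. All 9 were expressed above the low-count filter, which kept 18810 genes. There were 3 groups. The first was 5 i-TERTci mice treated with GSK2830371, which selectively inhibits WIP1, a phosphatase that turns down DNA damage signalling. The second was 5 i-TERTci mice given DMSO, the vehicle, and the third was 4 actin-rtTA+ control mice. An i-TERTci mouse is heterozygous for both actin-rtTA+ and tetop-TERTci+, so that doxycycline switches on a catalytically inactive telomerase reverse transcriptase throughout the body, and it develops collapsing glomerulopathy, a proteinuric kidney disease. All mice were adults on doxycycline in the drinking water, the controls included, and the controls carried the actin-rtTA+ transgene alone. Daily intraperitoneal injections began at about day 15, when urinary protein in i-TERTci mice exceeded 10 mg/mL; none is recorded for the controls. Kidneys had been exposed to doxycycline for 28 to 49 days in the GSK2830371 group, 29 to 38 days in the DMSO group and 30 days in the controls. The sources used here do not give strain, age in weeks, sex or the dose of GSK2830371.

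Telomeres are repeated DNA tracts that end in a single-stranded overhang, and shelterin is the protein complex that coats them so that the end is not handled as a DNA break. TRF1 (Terf1) and TRF2 (Terf2) bind the double-stranded repeats, RAP1 (Terf2ip) rides on TRF2, TIN2 (Tinf2) bridges TRF1, TRF2 and TPP1, and TPP1 (Acd) tethers the POT1 proteins that cover the overhang and brings in telomerase. Mice carry a pair of POT1 genes, Pot1a and Pot1b, where humans carry a single one. RTEL1 is a helicase that unwinds the telomeric loop during replication, and CTC1 is the large subunit of the CST complex, which guides fill-in of the complementary strand.

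Sequencing depth, as recovered reads in genes, was 48.4 to 49.4 M per GSK2830371 library, 47.2 to 48.8 M per DMSO library and 48.5 to 64.6 M per control library. The lowest read count of any of the 9 genes in any library was 87, for Pot1b. Values below are reads divided by a size factor for each library (normalised reads), with the SD between mice. Tert, the gene that the transgene encodes in altered form, had 231 to 2546 normalised reads in the GSK2830371 group, 574 to 2732 in the DMSO group and 117 to 183 in the controls. All 9 kidney markers were detected, and their summed level was 295095 to 626129 normalised reads in the GSK2830371 group, 370156 to 910632 in the DMSO group and 667264 to 1004090.5 in the controls. Of these 9 markers, 3 fell and 0 rose against the controls in both i-TERTci groups. By the same comparison, 2 of 5 T cell markers fell in GSK2830371 kidneys and 3 of 5 in DMSO kidneys. In both groups 1 of 3 erythroid markers fell. Of 5 macrophage markers 1 rose in both groups and 1 fell in DMSO kidneys. Adipocyte markers summed to 0 to 8777 normalised reads with GSK2830371, 1.1 to 10.8 with DMSO and 27.8 to 728 in the controls. Of these 3, 1 fell in DMSO kidneys. No B cell, dividing cell or adrenal cortex marker passed. Neutrophil markers summed to 324 to 20490 normalised reads in the GSK2830371 group, 761 to 30308 in the DMSO group and 31.5 to 107 in the controls, and 7 of 7 rose in both i-TERTci groups. Mitochondrial genes took 5.07% to 8.35% of reads in the GSK2830371 group, 4.95% to 9.52% in the DMSO group and 14.4% to 24.2% in the controls. Xist, the RNA made from the inactive X chromosome, exceeded 1000 reads in 3 of 5 GSK2830371 libraries, 2 of 5 DMSO libraries and 4 of 4 control libraries. The 3 Xist-positive GSK2830371 mice were also the 3 taken at 49 days, so that sex and duration cannot be told apart there. The part of cell composition, mitochondrial share, Xist status and days of doxycycline in the differences from the controls was not tested except where values are given beside a result.

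Between i-TERTci kidneys given DMSO and control kidneys, 4 of the 9 genes passed an adjusted p of 0.05, beside 48.3% of all tested genes. Acd, Terf2 and Ctc1 fell, with the change in Acd the largest of the 9, and Terf1 rose. Terf2ip, Tinf2, Pot1a, Pot1b and Rtel1 did not pass. Among all genes 25.2% passed in the upward direction and 23.1% in the downward direction. The median log2 change was -0.0048 over the 9 genes and 0.03 over all tested genes. In bulk tissue, fewer cells of a type and less RNA per cell cannot be told apart.

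Between i-TERTci kidneys given GSK2830371 and the same control kidneys, 2 of the 9 genes passed, Acd and Terf2, both lower, beside 46.3% of all tested genes. None of the 9 passed in the upward direction, beside 24.3% of all genes, and 22.1% of all genes passed in the downward direction. The median log2 change was -0.17 over the 9 genes and 0.01 over all tested genes. Between the GSK2830371 and DMSO groups 0 of the 9 genes passed, beside 0% of all tested genes; 800 of 18810 genes had an unadjusted limma p under 0.05 in that comparison, but 0 of the 9 did, and edgeR called 0 genes and DESeq2 1. Both comparisons with the controls use the same 4 control libraries, so they are not independent of each other.

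**Figure D1:**
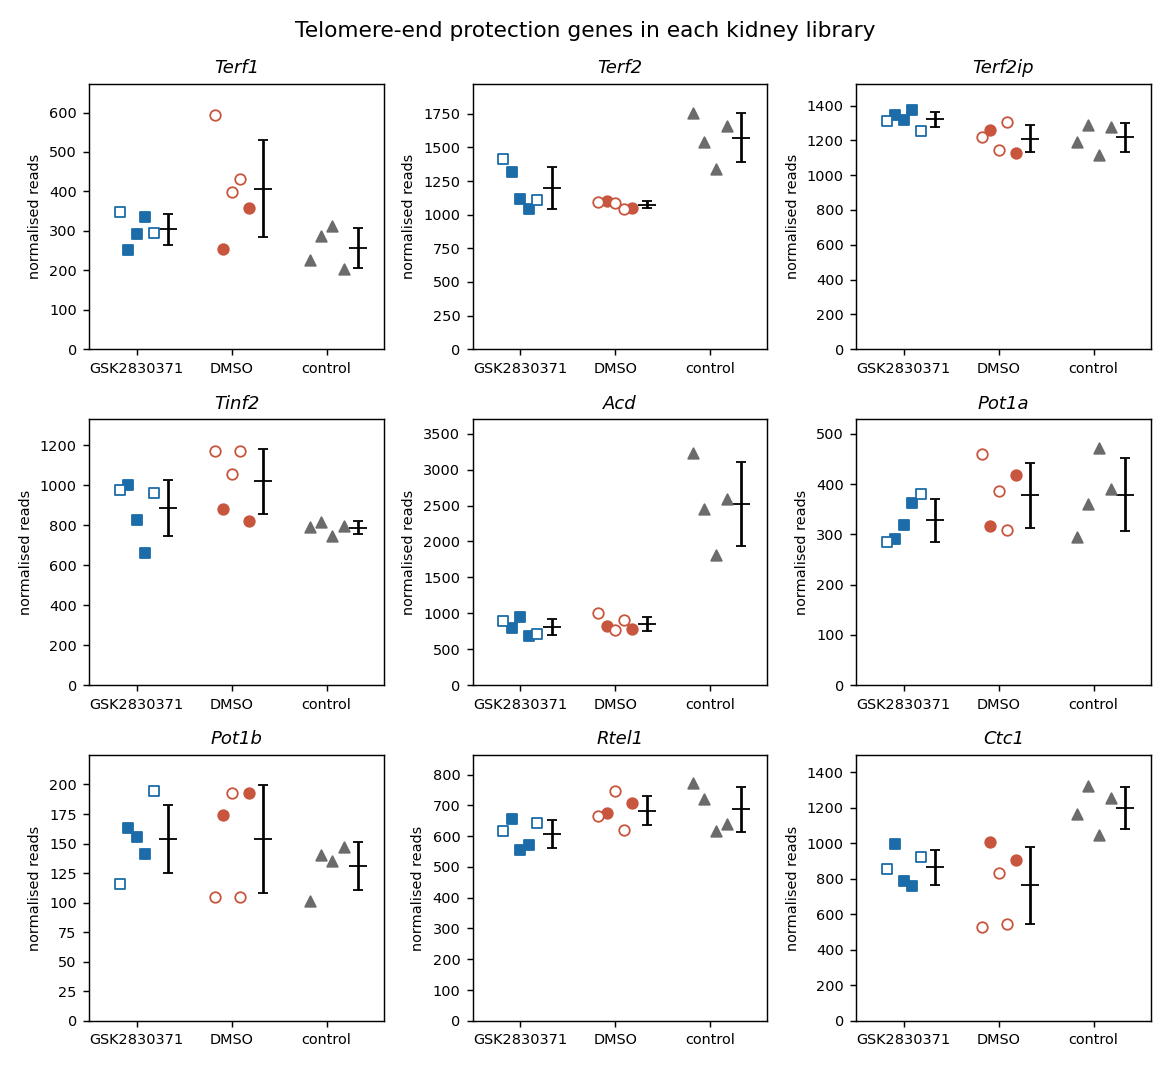
Normalised reads (y axis, linear from 0) of each of the 9 genes in every library, with the GSK2830371, DMSO and control groups from left to right; filled symbols are Xist-positive libraries, open symbols Xist-negative ones, and black bars the mean ± SD of the group. Every Acd value of the GSK2830371 group (685 to 945) and the DMSO group (761 to 1002) lies under the lowest control, at 1816, while the groups overlap for Terf2ip, Pot1a, Pot1b and Rtel1.

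Acd encodes TPP1, the subunit that joins POT1 to the rest of shelterin and carries the surface that recruits telomerase. Acd had 896, 797, 945, 685 and 707 normalised reads in GSK2830371 mice, 1002, 822, 761, 905 and 777 in DMSO mice, and 3235, 2449, 1816 and 2588 in control mice. The i-TERTci groups overlapped with each other and lay wholly below the controls. Acd averaged 806 ± 114 normalised reads in the GSK2830371 group (SD, n = 5), 853 ± 100.2 in the DMSO group (SD, n = 5) and 2522 ± 582 in the controls (SD, n = 4). Its level was 2.91-fold lower in DMSO than in control kidneys, a log2 change of -1.54 (SE 0.17, 95% interval -1.90 to -1.18, limma adjusted p = 6.17e-06). The change was -1.63 in GSK2830371 against control kidneys (SE 0.17, 95% interval -1.98 to -1.27, limma adjusted p = 4.09e-06). A lower log2 change than that of Acd was found in 6.79% of all tested genes for GSK2830371 against control and in 8.40% for DMSO against control. Acd passed the threshold against the controls under every alternative run, and with Xist-positive libraries alone its log2 change was -1.60 for GSK2830371 and -1.62 for DMSO.

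The 4 controls were spread widely in Acd, and their order matched that of their mitochondrial share. Control replicates 1, 4, 2 and 3 had 24.2%, 21.1%, 19.8% and 14.4% mitochondrial reads and 3235, 2588, 2449 and 1816 normalised Acd reads. The same order held for Terf2. This match was noticed after the values were seen, rests on 4 mice, and was not tested. When libraries were scaled by total non-mitochondrial reads in place of median-of-ratios size factors, the median log2 change of all genes moved to 0.12 for GSK2830371 against control and to 0.15 for DMSO against control, and that of Acd was -1.52 for GSK2830371 and -1.42 for DMSO.

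Acd lies on the minus strand of chromosome 8 at chr8:105695860-105701102 (GRCm38, GENCODE M21; ENSMUSG00000038000). Its 3′ end overlaps Carmil2, a gene on the opposite strand that encodes a regulator of actin and T cell signalling, over 1208 exonic bases or 33.3% of the exonic length of Acd. Its 5′ end lies 46 bases from Pard6a, a cell polarity gene also on the opposite strand. The sources used here do not say whether the counting used strand, so part of the reads in the shared stretch may belong to either gene. Carmil2 had 39.5 ± 18.4 normalised reads in the GSK2830371 group (SD, n = 5), 44.3 ± 30.1 in the DMSO group (SD, n = 5) and 185 ± 75.5 in the controls (SD, n = 4). It fell as well, with log2 changes of -2.22 for GSK2830371 against control (limma adjusted p = 0.000877) and -2.17 for DMSO against control (limma adjusted p = 0.000950). The highest Carmil2 value in any library was 283 normalised reads, in control replicate 1. Reads counted for Carmil2 do not bound those mixed in the shared stretch. The part of such mixing in the change of Acd was not tested. Pard6a also fell, by 0.76 on the log2 scale for GSK2830371 and by 0.63 for DMSO (limma adjusted p = 0.0147 and 0.0349 in that order).

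Terf2 encodes TRF2, which holds the telomeric loop closed and blocks end-to-end fusion. Terf2 had 1412, 1320.1, 1114, 1046 and 1111 normalised reads in GSK2830371 mice, 1092, 1104, 1084, 1044 and 1048 in DMSO mice, and 1759.5, 1539, 1338 and 1657 in control mice. The DMSO mice lay within a narrow band below every control, while the highest GSK2830371 mouse overlapped the lowest control. The log2 change was -0.39 for GSK2830371 against control (SE 0.13, 95% interval -0.67 to -0.11, limma adjusted p = 0.0225) and -0.54 for DMSO against control (SE 0.13, 95% interval -0.82 to -0.27, limma adjusted p = 0.00314). The call for GSK2830371 ended with Xist-positive libraries alone (-0.42, limma adjusted p = 0.0516), at 31 days or fewer (-0.31, limma adjusted p = 0.200), with total non-mitochondrial scaling (-0.28, limma adjusted p = 0.0972), and without control replicate 1, control replicate 4, GSK2830371 replicate 4 or GSK2830371 replicate 5 (limma adjusted p = 0.0521 to 0.0640). Xist-positive libraries alone left 3 GSK2830371 mice. The run at 31 days or fewer left the 2 Xist-negative GSK2830371 mice beside 4 Xist-positive controls, so duration and Xist status cannot be told apart in it. Terf2 lies at chr8:107069400-107096547, minus strand (ENSMUSG00000031921), and shares no exon with another annotated gene.

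Ctc1 encodes the scaffold of the CST complex. Ctc1 had 853, 995, 789.7, 757 and 921 normalised reads in GSK2830371 mice, 528, 1007, 830.5, 545 and 904 in DMSO mice, and 1166, 1319, 1048 and 1255 in control mice. All 10 i-TERTci values lay below all 4 control values. On the log2 scale the change was -0.69 for DMSO against control (SE 0.19, 95% interval -1.10 to -0.29, limma adjusted p = 0.00782). It was -0.47 for GSK2830371 against control (SE 0.19, 95% interval -0.88 to -0.07), which missed the threshold at a limma adjusted p of 0.0544 and passed it with voom (adjusted p = 0.0475), in DESeq2 (adjusted p = 0.0432), with these 2 groups fitted alone (limma adjusted p = 0.0176) and on the deposited values (limma adjusted p = 0.0179). The DMSO values were low in Xist-negative mice (528, 830.5 and 545) and higher in Xist-positive ones (1007 and 904). The GSK2830371 values showed no such split, at 853 and 921 in Xist-negative mice and 995, 789.7 and 757 in Xist-positive ones. With Xist-positive libraries alone the GSK2830371 change was -0.49 (limma adjusted p = 0.0336) and the DMSO change -0.32 (limma adjusted p = 0.209). The DMSO call also ended with an Xist term (-0.53, limma adjusted p = 0.0625) and with total non-mitochondrial scaling (-0.57, limma adjusted p = 0.0687). Ctc1 lies at chr11:69015911-69036473, plus strand (ENSMUSG00000020898).

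The 3 genes that fell in DMSO against control kidneys are shown by their promoters, from 250 bases before to 50 bases after the start in RefSeq (GRCm38.p6), read 5′ to 3′ on the gene's strand with motif matches in capitals. The windows are chr8:105701179-105701478 on the minus strand for Acd, chr8:107096496-107096795 on the minus strand for Terf2 and chr11:69015661-69015960 on the plus strand for Ctc1.
Acd: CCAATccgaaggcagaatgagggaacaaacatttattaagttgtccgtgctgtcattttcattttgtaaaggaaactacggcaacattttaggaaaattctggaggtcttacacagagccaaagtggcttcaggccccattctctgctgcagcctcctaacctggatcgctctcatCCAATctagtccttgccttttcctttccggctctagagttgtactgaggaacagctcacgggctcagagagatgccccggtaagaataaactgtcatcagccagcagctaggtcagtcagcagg
Terf2: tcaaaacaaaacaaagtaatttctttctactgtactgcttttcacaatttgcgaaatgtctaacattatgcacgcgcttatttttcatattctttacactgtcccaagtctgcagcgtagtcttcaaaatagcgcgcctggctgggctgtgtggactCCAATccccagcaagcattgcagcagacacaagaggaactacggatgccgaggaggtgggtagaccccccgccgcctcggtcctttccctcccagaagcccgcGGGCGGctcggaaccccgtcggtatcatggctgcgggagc
Ctc1: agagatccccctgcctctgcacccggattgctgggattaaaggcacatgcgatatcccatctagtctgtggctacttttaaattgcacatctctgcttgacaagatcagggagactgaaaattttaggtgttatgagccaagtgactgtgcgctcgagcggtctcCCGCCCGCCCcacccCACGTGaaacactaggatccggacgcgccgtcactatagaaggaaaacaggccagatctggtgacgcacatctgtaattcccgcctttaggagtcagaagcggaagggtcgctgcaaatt
The motifs searched on both strands were the GC box GGGCGG, the ETS core CCGGAAG, the CCAAT box, the E-box CACGTG, the NRF1 motif and the TATA box TATAAA. Acd holds CCAAT at bases 1 and 177 of its window and no GC box. Terf2 holds CCAAT at base 158 and a GC box at base 261. Ctc1 holds overlapping GC boxes at bases 166 and 170 and the E-box at base 181, and no CCAAT. Of 27025 promoters of the same length, 37.9% hold CCAAT, 35.9% the GC box and 7.24% the E-box. No motif among these was held by all 3 promoters. The Acd window lies wholly within the span of Pard6a, which begins at base 105701148, because the RefSeq start of Acd is upstream of the GENCODE one. Of the other members, Terf2ip, Tinf2, Pot1a, Pot1b and Rtel1 also had a RefSeq entry, and Terf1 was without one. Over these 8 promoters 6 hold the GC box, 4 the ETS core, which 9.12% of all promoters hold, and 3 CCAAT; none holds the TATA box, which 14.2% of all promoters hold, or the NRF1 motif, which 0.977% hold.

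Terf1 encodes TRF1, which aids replication through the telomere and, with TIN2, limits access of telomerase. Terf1 had 347, 251, 291, 335 and 295 normalised reads in GSK2830371 mice, 592, 255, 399, 432 and 357 in DMSO mice, and 225, 287, 312 and 202 in control mice. The groups overlapped, and a single DMSO mouse stood highest. The estimated log2 change was 0.25 for GSK2830371 against control (95% interval -0.23 to 0.74, limma adjusted p = 0.383) and 0.63 for DMSO against control (SE 0.23, 95% interval 0.14 to 1.12, limma adjusted p = 0.0330). Among DMSO mice the Xist-negative ones had 592, 399 and 432 normalised reads and the Xist-positive ones 255 and 357. Among GSK2830371 mice the Xist-negative ones (347 and 295) overlapped the Xist-positive ones (251, 291 and 335). With Xist-positive libraries alone the DMSO change was 0.26 (limma adjusted p = 0.472), and the call also ended with an Xist term (0.40, limma adjusted p = 0.216), at 31 days or fewer (0.60, limma adjusted p = 0.0841), with 2 groups fitted at a time (0.64, limma adjusted p = 0.0569), on the deposited values (0.64, limma adjusted p = 0.0570), and when replicate 1, 3 or 4 of the DMSO group or replicate 1 or 4 of the controls was left out (limma adjusted p = 0.0539 to 0.109). Terf1 lies at chr1:15805646-15844052, plus strand (ENSMUSG00000025925).

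Tinf2 encodes TIN2, the hub of shelterin. Tinf2 had 976, 1001, 826, 663 and 964 normalised reads in GSK2830371 mice, 1170.4, 882, 1056, 1174 and 824 in DMSO mice, and 794, 818, 746 and 797 in control mice. Every DMSO value lay above every control value, though by only a few reads at the margin, and the GSK2830371 values spanned the controls. Its log2 change was 0.15 for GSK2830371 against control (95% interval -0.18 to 0.49, limma adjusted p = 0.451) and 0.36 for DMSO against control (SE 0.16, 95% interval 0.02 to 0.69, limma adjusted p = 0.0728). It passed for DMSO without DMSO replicate 5 (0.44, limma adjusted p = 0.0377) and with total non-mitochondrial scaling (0.48, limma adjusted p = 0.0159). Tinf2, at chr14:55674689-55681820 on the minus strand (ENSMUSG00000007589), shares 1540 exonic bases (31.2%) with Gmpr2 on the opposite strand. Gmpr2 is a guanosine monophosphate reductase gene. Its mean ± SD was 814 ± 82.6 normalised reads with GSK2830371, 919 ± 112 with DMSO and 758 ± 79.3 in the controls. Gmpr2 had log2 changes of 0.10 for GSK2830371 and 0.28 for DMSO against control (limma adjusted p = 0.571 and 0.119 in that order). Neither passed. As for Acd, reads in the shared stretch may belong to either gene, and the part of such mixing in Tinf2 was not tested.

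Terf2ip encodes RAP1, which TRF2 carries to the telomere and which also binds elsewhere in the genome. Terf2ip had 1309, 1348, 1318, 1374 and 1255 normalised reads in GSK2830371 mice, 1219, 1257, 1145, 1306 and 1126 in DMSO mice, and 1191, 1289.5, 1114 and 1279.5 in control mice. Its coefficient of variation was 3.40% in the GSK2830371 group, 6.24% in the DMSO group and 6.77% in the controls. The log2 change was 0.12 for GSK2830371 against control (95% interval -0.12 to 0.36, limma adjusted p = 0.409) and -0.01 for DMSO against control (95% interval -0.25 to 0.23, limma adjusted p = 0.955). Terf2ip is the partner of TRF2, yet its interval for DMSO against control lay wholly above the estimate for Terf2, at -0.54; the difference between the genes was not tested. Terf2ip lies at chr8:112011398-112020528, plus strand (ENSMUSG00000033430), and shares 108 exonic bases (2.18%) with the low-count gene Gm6793 on the opposite strand.

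Pot1a and Pot1b bind the overhang; in mice POT1a is the one needed to hold back ATR signalling, and POT1b limits trimming of the complementary strand. Pot1a had 285, 291, 319, 363 and 381 normalised reads in GSK2830371 mice, 459, 317, 386, 309 and 419 in DMSO mice, and 295, 359.9, 471 and 391 in control mice. Pot1b had 116, 164, 156, 141 and 194 normalised reads in GSK2830371 mice, 105, 174, 193, 105 and 193 in DMSO mice, and 101, 140.1, 135 and 147 in control mice. All groups overlapped for both genes. The log2 change of Pot1a was -0.20 for GSK2830371 against control (95% interval -0.60 to 0.21, limma adjusted p = 0.412) and -0.0015 for DMSO against control (95% interval -0.41 to 0.40, limma adjusted p = 0.996). That of Pot1b was 0.23 for GSK2830371 against control (95% interval -0.32 to 0.78, limma adjusted p = 0.491) and 0.19 for DMSO against control (95% interval -0.36 to 0.74, limma adjusted p = 0.564). Pot1a lies at chr6:25743737-25809246 (ENSMUSG00000029676) and Pot1b at chr17:55651951-55712628 (ENSMUSG00000024174), both on the minus strand. The longest stretch identical between any of their transcripts is 41 bases. How many reads could be placed on either gene was not tested.

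The ratio of Pot1b to Pot1a within a library was taken on normalised reads with 1 added to each. Its size factor enters only through that added 1. On these values Pot1b was 40.9%, 56.3%, 48.9%, 39.1% and 51.2% of Pot1a in GSK2830371 mice, 23.1%, 55.1%, 50.1%, 34.1% and 46.2% in DMSO mice, and 34.6%, 39.1%, 28.9% and 37.8% in control mice, with no correction for length. The GSK2830371 values lay level with or above the highest control, and the DMSO values spread on both sides of the control range. The mean log2 ratio was -1.09 ± 0.22 in the GSK2830371 group (SD, n = 5), -1.33 ± 0.51 in the DMSO group (SD, n = 5) and -1.52 ± 0.20 in the controls (SD, n = 4). GSK2830371 exceeded control by 0.43 in an exact two-sided permutation test with p = 0.0397, or 0.119 after Benjamini-Hochberg adjustment over the 3 comparisons. The other differences were 0.19 for DMSO against control (exact permutation p = 0.508, adjusted 0.508) and 0.23 for GSK2830371 against DMSO (exact permutation p = 0.413, adjusted 0.508). The smallest p these designs allow is 0.0159 against the controls and 0.00794 between the i-TERTci groups.

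Rtel1 encodes a helicase that resolves telomeric loops and G-rich structures. Rtel1 had 615, 657, 554, 569.8 and 643 normalised reads in GSK2830371 mice, 666, 676, 745, 620.4 and 708 in DMSO mice, and 773, 719.9, 616 and 639 in control mice. The groups overlapped throughout. On the log2 scale the change was -0.17 for GSK2830371 against control (95% interval -0.46 to 0.11, limma adjusted p = 0.3005) and -0.0048 for DMSO against control (95% interval -0.29 to 0.28, limma adjusted p = 0.980). Rtel1 lies at chr2:181319739-181356616, plus strand (ENSMUSG00000038685).

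Groups that do not overlap were found for 2 of the 9 genes in GSK2830371 against control (Acd and Ctc1), beside 40.3% of all tested genes. In DMSO against control they were found for 4 (Acd, Terf2, Ctc1 and Tinf2), beside 38.8% of all tested genes. Between GSK2830371 and DMSO they were found for 0 of the 9, beside 0.484% of all tested genes.

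**Figure D2:**
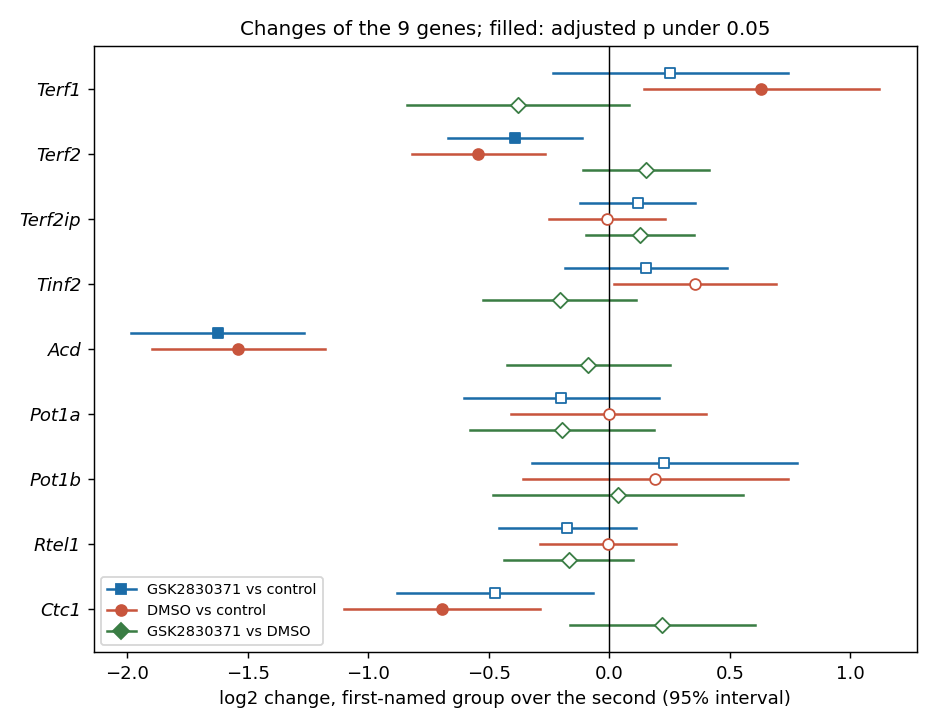
Log2 change (x axis) of each of the 9 genes with its 95% interval, for GSK2830371 against control, DMSO against control and GSK2830371 against DMSO from top to bottom within a gene; filled symbols have a limma adjusted p under 0.05. Acd stands apart at -1.63 and -1.54 against the controls, and every interval for GSK2830371 against DMSO includes 0.

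The inhibitor was compared with its vehicle within i-TERTci mice as GSK2830371 against DMSO. Time on doxycycline also differed, at 28 to 49 days with GSK2830371 and 29 to 38 days with DMSO. The inhibitor and the longer exposure cannot be told apart in the values below. The log2 change was largest in size for Terf1, at -0.38 (95% interval -0.84 to 0.08), and for Ctc1, at 0.22 (95% interval -0.16 to 0.60). For Tinf2 it was -0.21 (95% interval -0.52 to 0.11), for Pot1a -0.20 (95% interval -0.58 to 0.18) and for Rtel1 -0.17 (95% interval -0.43 to 0.10). Each of these intervals includes 0 but lies mostly on the side of its estimate, so it leaves more room for a change in that direction. Terf2 had a change of 0.15 (95% interval -0.11 to 0.41) and Terf2ip of 0.13 (95% interval -0.10 to 0.35). Acd had a change of -0.09 (95% interval -0.42 to 0.25), so that its interval does not reach the size of its difference from the controls. Pot1b had a change of 0.04 with the widest interval of the 9 (-0.48 to 0.56). The limma adjusted p was 0.994 to 0.996 for all 9 genes, and the unadjusted p 0.101 to 0.882.

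Levels were also compared between the genes after division by exonic length, as normalised reads per kilobase of merged exons. Reads that Acd and Tinf2 may share with opposite-strand genes were left in, here and in the shelterin shares that follow. In GSK2830371 kidneys the order was Terf2ip (266 ± 9.07), Terf2 (261 ± 34.1), Acd (222 ± 31.5), Tinf2 (179 ± 28.7), Ctc1 (127 ± 14.3), Rtel1 (91.9 ± 6.80), Terf1 (65.9 ± 8.36), Pot1a (37.8 ± 4.90) and Pot1b (29.3 ± 5.48), as mean ± SD with n = 5. In DMSO kidneys Terf2ip (244 ± 15.2), Acd (235 ± 27.7) and Terf2 (234 ± 5.84) were followed by Tinf2 (207 ± 32.8), Ctc1 (112 ± 31.7), Rtel1 (103 ± 7.07), Terf1 (88.3 ± 26.7), Pot1a (43.6 ± 7.50) and Pot1b (29.2 ± 8.62), with n = 5. In control kidneys Acd led (696 ± 161), ahead of Terf2 (342 ± 39.4), Terf2ip (246 ± 16.6), Ctc1 (176 ± 17.3), Tinf2 (160 ± 6.17), Rtel1 (104 ± 10.99), Terf1 (55.7 ± 11.1), Pot1a (43.7 ± 8.46) and Pot1b (24.9 ± 3.88), with n = 4. In the controls Acd was first without overlap with Terf2, and Ctc1 and Tinf2 lay within their spread of each other, as did Terf1 and Pot1a. In both i-TERTci groups Terf2ip, Terf2, Acd and Tinf2 each overlapped their neighbour in the order, and so did Pot1a and Pot1b, which came last in every group. Ctc1 and Tinf2 overlapped in GSK2830371 kidneys, and Ctc1, Rtel1 and Terf1 in DMSO kidneys. With the longest transcript as the length, Acd stayed first in the controls and was the fourth of the 9 in both i-TERTci groups, behind Terf2, Terf2ip and Tinf2. By that length Pot1a (116) ranked above Terf1 (88.2) in the controls, while Pot1b stayed last in every group.

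As a share of the summed reads per kilobase of the 7 shelterin genes, Acd made up 20.9% ± 2.23 in the GSK2830371 group (SD, n = 5; 18.9% to 24.5%), 21.7% ± 1.20 in the DMSO group (SD, n = 5; 19.8% to 23.1%) and 43.9% ± 4.97 in the controls (SD, n = 4; 38.1% to 50.2%). The lowest control share exceeded the highest i-TERTci share. Terf2 took 24.5% in the GSK2830371 group, 21.7% in the DMSO group and 21.8% in the controls. Terf2ip took 25.2% in the GSK2830371 group, 22.6% in the DMSO group and 15.8% in the controls, and Tinf2 took 16.8%, 19.0% and 10.3% in the same groups. Shares sum to a whole, so a smaller part for Acd raises the others even where their own levels did not change. Terf1 took 6.23% in the GSK2830371 group, 8.08% in the DMSO group and 3.65% in the controls. By merged exonic length, Pot1a and Pot1b each took less than any other shelterin gene in the group means. They took 3.59% and 2.77% in the GSK2830371 group, 4.04% and 2.76% in the DMSO group and 2.87% and 1.62% in the controls.

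**Figure D3:**
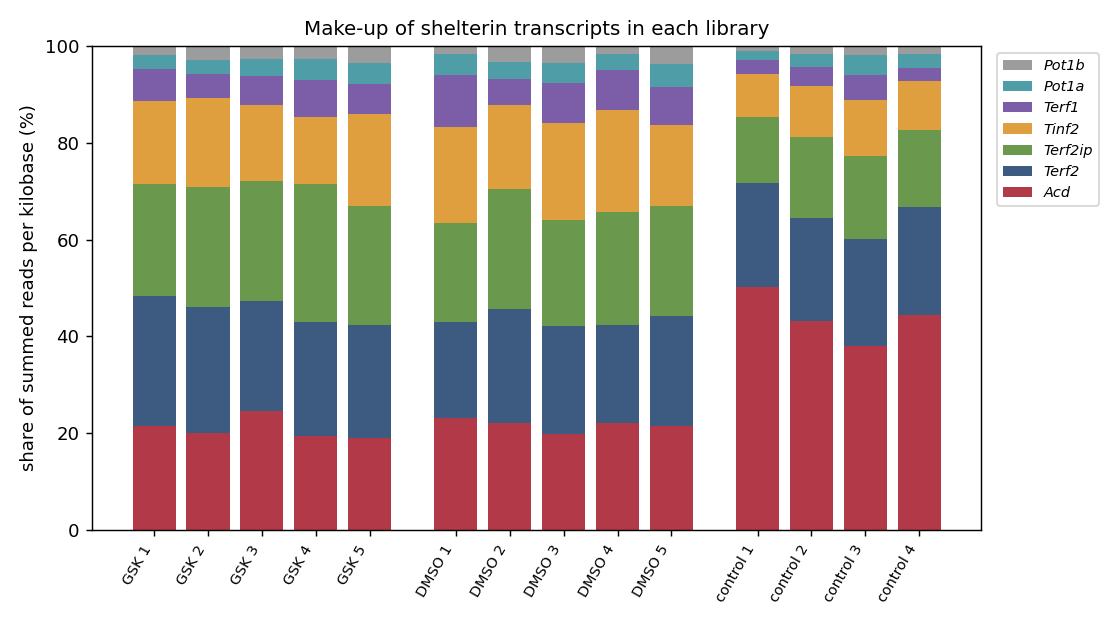
Share of summed reads per kilobase (y axis, %) taken by each of the 7 shelterin genes in every library, as stacked bars, with the GSK2830371, DMSO and control groups from left to right. The Acd segment at the bottom spans 18.9% to 24.5% in the GSK2830371 group, 19.8% to 23.1% in the DMSO group and 38.1% to 50.2% in the controls.

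The 9 genes varied among themselves within groups. Over deviations from the group means in 14 libraries, the highest Pearson r among the 36 pairs was 0.77, between Pot1b and Ctc1, and the lowest was -0.77, between Terf1 and Ctc1. Terf2 and Acd had an r of 0.66, and Terf2 and Pot1a one of -0.64. The points share library, depth and Xist status, so these values only describe the 14 libraries. Likeness was ranked among the tested genes, with predicted genes, clones, Rik symbols and pseudogenes left out. The genes most like Acd were Rps6kb2 (r = 0.95, Spearman rho = 0.92) and Ubl7 (r = 0.95). Those most like Terf2 were Cenpb (r = 0.90, rho = 0.89) and Zfpl1 (r = 0.89), and those most like Ctc1 were Gucy1a1 (r = 0.96, rho = 0.93) and Plcg2 (r = 0.95). For Tinf2 they were Map2k7 (r = 0.97) and Zfp777 (r = 0.91), for Terf1 Sap18b (r = 0.90) and Bcl2l15 (r = 0.90), and for Terf2ip Map3k11 (r = 0.91) and Neu1 (r = 0.89). For Pot1a they were Kcnq3 (r = 0.91) and Kctd12 (r = 0.90), for Pot1b Zfp629 (r = 0.96) and Cc2d2a (r = 0.94), and for Rtel1 Fermt3 (r = 0.93) and Csf2ra (r = 0.91). These genes were picked as the 2 highest per member out of the 18810 tested genes less those left out, over 14 libraries.

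The wider telomere pathway was followed through 4 lists with 55 genes, of which 54 were found and tested; the telomerase RNA gene Terc was not analysed here. Against the controls, 25 of the 54 passed for GSK2830371 (16 higher and 9 lower, 46.3%) and 24 of the 54 for DMSO (17 higher and 7 lower, 44.4%), near the 46.3% and 48.3% of all genes in those comparisons. Between GSK2830371 and DMSO 0 of the 54 passed.

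Among 11 genes of telomerase and its assembly, 3 rose and 3 fell for GSK2830371 against control and 4 rose and 3 fell for DMSO against control, with median log2 changes of 0.12 for GSK2830371 and 0.15 for DMSO. Tert was higher by 2.41 on the log2 scale in GSK2830371 kidneys (limma adjusted p = 0.00484) and by 3.24 in DMSO kidneys (limma adjusted p = 0.000621); the tables do not separate the transgene from the mouse gene. Parn, a nuclease that matures the telomerase RNA, rose by 0.64 in GSK2830371 kidneys (limma adjusted p = 0.00341) and by 0.58 in DMSO kidneys (limma adjusted p = 0.00604). Naf1, an assembly factor of the telomerase particle, fell by 0.93 in GSK2830371 kidneys (limma adjusted p = 0.00250) and by 0.73 in DMSO kidneys (limma adjusted p = 0.0115). Shq1, a chaperone of dyskerin, rose by 0.73 in GSK2830371 kidneys (limma adjusted p = 0.0173) and by 1.04 in DMSO kidneys (limma adjusted p = 0.00180). The smallest p between GSK2830371 and DMSO were those of the particle subunits Gar1 and Nhp2 and of Tert. Their changes of -0.51, -0.39 and -0.82 in that order did not pass (limma adjusted p = 0.994 each). Against the controls Gar1 rose by 0.86 for DMSO (limma adjusted p = 0.00791) and did not pass for GSK2830371 (0.35, limma adjusted p = 0.237). Nhp2 passed in neither (limma adjusted p = 0.588 for DMSO and 0.0866 for GSK2830371).

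Among the 6 partners of CTC1 in CST and fill-in synthesis, 1 rose and 1 fell for GSK2830371 against control and 1 rose and 2 fell for DMSO against control. The median log2 change was -0.35 for GSK2830371 and -0.29 for DMSO. Stn1, which binds CTC1 directly, fell like Ctc1 in DMSO kidneys, by 0.63 on the log2 scale (limma adjusted p = 0.0263), and fell by 0.78 in GSK2830371 kidneys (limma adjusted p = 0.00941). Pola1, the catalytic subunit of DNA polymerase alpha, rose by 1.37 in GSK2830371 kidneys (limma adjusted p = 0.00141) and by 1.28 in DMSO kidneys (limma adjusted p = 0.00200). The primase subunit Prim2 fell by 0.49 in DMSO kidneys (limma adjusted p = 0.0467) and did not pass in GSK2830371 kidneys (limma adjusted p = 0.295). Pola2, the regulatory subunit of the polymerase, had a change of -0.38 in GSK2830371 kidneys that did not pass (limma adjusted p = 0.0835). Between GSK2830371 and DMSO, Pola2, Prim2 and Stn1 had the smallest p of the list, and none passed (limma adjusted p = 0.994 each).

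Among 19 genes of telomere processing and partners of shelterin, 6 rose and 2 fell for GSK2830371 against control and 6 rose and 1 fell for DMSO against control, with median log2 changes of 0.12 for GSK2830371 and 0.27 for DMSO. Tnks2, a tankyrase gene, rose by 1.04 in GSK2830371 kidneys (limma adjusted p = 0.000262) and by 1.09 in DMSO kidneys (limma adjusted p = 0.000159). Its relative Tnks rose by 0.84 (limma adjusted p = 0.00144) and 0.60 (limma adjusted p = 0.0121) in the same groups. Dclre1b, the nuclease Apollo that TRF2 recruits, rose by 0.87 in GSK2830371 kidneys (limma adjusted p = 0.00194) and by 0.63 in DMSO kidneys (limma adjusted p = 0.0139), where Terf2 fell. The flap endonuclease gene Fen1 rose by 1.03 in GSK2830371 kidneys (limma adjusted p = 0.000498) and by 0.92 in DMSO kidneys (limma adjusted p = 0.00109). Rif1, a gene first described for binding RAP1 in yeast, rose by 0.58 in GSK2830371 kidneys (limma adjusted p = 0.0137) and by 0.64 in DMSO kidneys (limma adjusted p = 0.00717). Between GSK2830371 and DMSO the smallest p were those of the nuclease genes Ercc1, Mus81 and Slx4, and none passed (limma adjusted p = 0.994 each). Against the controls Mus81 fell, with log2 changes of -1.35 for GSK2830371 and -0.85 for DMSO (limma adjusted p = 0.00185 and 0.0273). Ercc1 fell for GSK2830371 (-0.82, limma adjusted p = 0.0327) and did not pass for DMSO (-0.24, limma adjusted p = 0.525). Slx4 passed in neither comparison with the controls (limma adjusted p = 0.942 and 0.205).

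Among 18 genes of telomere chromatin and damage signalling, 6 rose and 3 fell for GSK2830371 against control and 6 rose and 1 fell for DMSO against control, with a median log2 change of 0.33 in both. Atrx, a chromatin remodeller that restrains recombination at telomeres, rose by 0.96 in GSK2830371 kidneys (limma adjusted p = 0.000593) and by 0.79 in DMSO kidneys (limma adjusted p = 0.00232). Smchd1 rose by 0.64 in GSK2830371 kidneys (limma adjusted p = 0.00377) and by 0.59 in DMSO kidneys (limma adjusted p = 0.00579). Shld2, a shieldin subunit that protects DNA ends from resection, rose by 1.17 in GSK2830371 kidneys (limma adjusted p = 0.00570) and by 0.99 in DMSO kidneys (limma adjusted p = 0.0139). Between GSK2830371 and DMSO the smallest p were those of Shld1, Zbtb48 and Atrx, and none passed (limma adjusted p = 0.994 each). Against the controls Shld1 and Zbtb48 fell for GSK2830371, with log2 changes of -0.62 and -0.65 (limma adjusted p = 0.0329 and 0.0136). Neither of them passed for DMSO (-0.37 and -0.44, limma adjusted p = 0.189 and 0.0745).

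**Figure D4:**
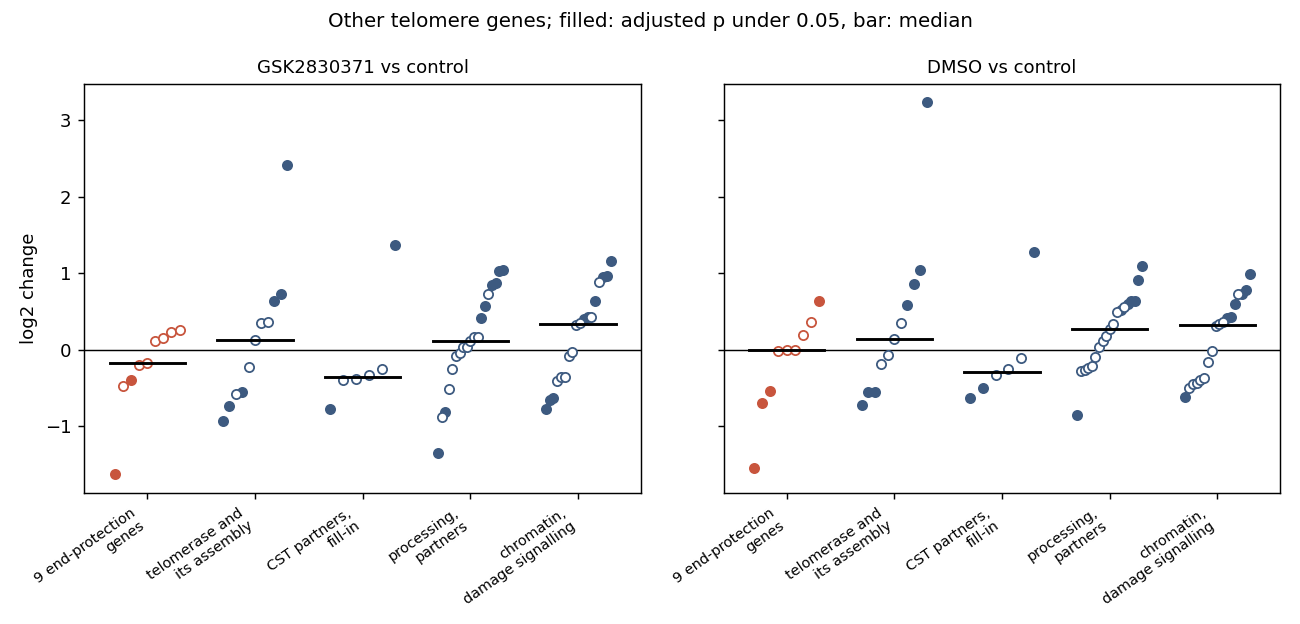
Log2 change (y axis) of every tested gene in the 9 end-protection genes and the 4 other telomere lists, for GSK2830371 against control on the left and DMSO against control on the right; filled points have a limma adjusted p under 0.05 and bars mark list medians. The lowest of the 9 is Acd in both panels, and the highest point of all is Tert, at 2.41 on the left and 3.24 on the right.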

How the data were processed

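The data were 14 libraries of total RNA from whole kidney. Per the submitters' processing notes, FastQC, Trimmomatic, STAR, DESeq2 and mm10 were used, without versions; the sources used here give no counter, annotation or strand setting. The deposited signal in 2 tables of 9 libraries is whole reads that the authors divided by a size factor per library; 100% of values came out whole within 0.001 of a multiple of the column's step, and the controls' reads were identical in both. Recovered reads of the 23682 shared genes were rescaled by median-of-ratios size factors from 14 libraries, filtered with filterByExpr, and fitted as log2(value + 1) with limma 3.58.1 (trend, robust; two-sided; Benjamini-Hochberg over 18810 genes, threshold 0.05). Since the values are on this scale, changes of low genes are understated. Each replicate was taken as 1 mouse, since the labels name mice. No pair of libraries within a group agreed within sampling noise. The lowest chi-square per degree of freedom was 34.2, for control replicates 2 and 4, and the next 111. Such a check can find a library sequenced again, but cannot tell 2 samples of 1 mouse from 2 mice. Alternatives used edgeR 4.0.16, DESeq2 1.42.0, voom, TMM, total non-mitochondrial reads, pseudocounts of 0.25 and 8, no filter, 2 groups at a time, the deposited values, an Xist term, Xist-positive libraries, 31 days or fewer, a replicate block, and each library left out. Loci came from GENCODE M21 (GRCm38) and promoters from RefSeq (GRCm38.p6). R 4.3.3, Python 3.11.15 and matplotlib 3.10.9 were used, and the fit was tested on simulated data. The members and lists were chosen with earlier results of these data known. Named genes are the 9 members, the 3 genes of smallest p and the first gene of each list. For likeness they are the 2 genes of highest Pearson r per member, without predicted genes, clones, Rik symbols and pseudogenes.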

Additional observations from a re-analysis of the deposited data

How the results depend on the processing

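Of 369 single-gene values under the alternatives other than leaving out a library, 330 kept their direction and their side of the threshold, 11 lost and 7 gained the call, and 21 changed sign. Of 252 with a library left out, 226 kept both, 9 lost and 1 gained the call, and 16 changed sign. The sign changes were all between values that did not pass. Acd passed against the controls in every run (-1.78 to -1.50 for GSK2830371 and -1.69 to -1.41 for DMSO with a library left out). In DMSO against control 4 genes passed, and 2 with an Xist term or Xist-positive libraries alone. Terf1 and Ctc1 were lost in both (0.40 and -0.53, then 0.26 and -0.32). Fewer of all genes passed as well, 6803 of 18810 with the Xist term and 6124 of 19321 with Xist-positive libraries, beside 9079 of 18810. In GSK2830371 against control 2 passed, and 1 with total non-mitochondrial reads or at 31 days or fewer, Acd. Over all genes 8364 of 18810 and 7244 of 19515 passed in these runs, in that order, beside 8716 of 18810. Leaving out a library gave 1 to 2 genes for GSK2830371 and 3 to 5 for DMSO, out of 7254 to 8625 and 7645 to 9108 genes changed over all, and 0 between GSK2830371 and DMSO for both; there DESeq2 called 1 gene and Xist-positive libraries 2, none of the 9. The Pot1b to Pot1a log2 ratio ran from 0.34 to 0.49 for GSK2830371 against control, 0.076 to 0.39 for DMSO against control and 0.037 to 0.35 for GSK2830371 against DMSO, where Xist-positive libraries alone gave -0.084. The cause of these shifts was not tested.

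Signs that changed for DMSO against control: Terf2ip became 0.11 with total non-mitochondrial reads, 0.0019 with 2 groups only, 0.0019 with the deposited values, 0.0127 with the replicate block and 0.00094 with an Xist term; Pot1a became 0.12 with total reads, 0.0095 with 2 groups or the deposited values and 0.068 at 31 days or fewer; Rtel1 became 0.12 with total reads, 0.0062 with 2 groups or the deposited values, 0.022 with Xist-positive libraries and 0.030 at 31 days or fewer. For GSK2830371 against DMSO, Tinf2 became 0.0055 at 31 days or fewer, Acd 0.016 and Ctc1 -0.17 with Xist-positive libraries, and Pot1b -0.0015 with DESeq2, -0.017 with an Xist term, -0.25 with Xist-positive libraries and -0.094 at 31 days or fewer. With a library left out, Terf2ip ran from -0.054 to 0.0205, Pot1a from -0.12 to 0.11 and Rtel1 from -0.058 to 0.0495 for DMSO against control, and Pot1b from -0.086 to 0.13 for GSK2830371 against DMSO.

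The replicate block gave 9248 changed genes for GSK2830371 against control, 9589 for DMSO against control and 0 between GSK2830371 and DMSO, with 3, 4 and 0 of the 9; Ctc1 was the gene added for GSK2830371 (-0.52, limma adjusted p = 0.0260). Same-numbered libraries correlated at 0.05 to 0.10 for GSK2830371 with control, -0.06 to 0.09 for DMSO with control and -0.03 to 0.34 for GSK2830371 with DMSO. The labels state no pairing by replicate number. These few correlations were not set against differently numbered libraries, so they cannot exclude one. The libraries are deep, and the number of mice limits the precision, most of all for Pot1b.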
